A study of Macaca fascicularis with 22 samples.

Results

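The cytosolic ribosomal proteins are the proteins of the large and small ribosomal subunit. The members were the probes whose accession is among 60 human RefSeq numbers of large subunit (RPL and RPLP) and small subunit (RPS) proteins. This rule used no measured value, but it was set with earlier results of these data known. Of the 60 numbers, 36 were on the array, carried by 37 of its 20217 probes. These were 24 large subunit genes on 25 probes, since RPL17 had 2 probes, and 12 small subunit genes on 12 probes. The other 24 numbers, RPL31 (NM_000993) among them, had no probe and are not described. The study's tables pair 7 of the 36 with a symbol, namely RPL13 (NM_000977), RPL17 (NM_000985), RPL30 (NM_000989), RPS3A (NM_001006), RPS6 (NM_001010), RPS7 (NM_001011) and RPS10 (NM_001014). No table used here names the other 29, so they are called by their accession, and their subunit follows the order of the list.

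RNA came from neonates of the cynomolgus macaque, Macaca fascicularis whose dams had all mated with the same male. Lower birth weight (LBW) neonates lay between the 5th and 25th birth weight centile, and average birth weight (ABW) neonates between the 50th and 75th, with no other treatment or genotype. Skeletal muscle (biceps) and umbilical cord each had 4 LBW and 4 ABW samples, and liver 3 and 3, by the labels, which place the sampling at birth, while the study's methods place that of muscle and liver on postnatal day 5. Each sample was hybridized to a single-colour Agilent rhesus array, and the labels do not tell which arrays of different tissues came from the same neonate.

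Each ribosome joins a small subunit, which reads the messenger RNA, to a large subunit, which forms the peptide bond. Ribosomal protein genes are expressed in every growing cell and are commonly regulated together with growth, in part through the mTOR pathway and S6 kinase, which phosphorylates RPS6.

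Values are given on the log2 scale as scaled signals, that is the processed signal of a probe less the 75th percentile of its array, so 0 is that percentile. A probe's brightness depends on its sequence, so levels are compared between arrays and not between members. A difference is LBW minus ABW. Within a tissue a member was called higher or lower where limma gave an unadjusted p below 0.05 and the difference reached 1.5-fold, and an adjusted p was corrected over the 17117 probes of the array that were kept, since in at least 1 of the 6 groups 75% or more of the arrays showed them well above background.

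The tissue labels were checked against marker genes. The lowest umbilical cord array exceeded the highest liver array at each of the 11 hepatocyte markers measured, going by the labels, and the reverse held at each of the 7 matrix and stromal markers. The summed level of the hepatocyte list was 9.71 to 10.99 on the ABW and 10.45 to 11.38 on the LBW arrays labelled umbilical cord, against -0.84 to 0.39 on those labelled liver, where 7 of its 11 probes never rose well above background in either birth weight group. The 6 striated muscle markers were highest on every skeletal muscle array. All 5 erythroid probes tested were lower labelled umbilical cord than labelled liver (median -3.18), 4 at an adjusted p under 0.05 by limma, beside 31.3% of all probes. Muscle was higher than labelled liver at 7 of the 11 hepatocyte markers at that threshold (median over the 11 of 2.48), beside 37.2% of all probes. The arrays are therefore called by their labels only. In muscle every ABW array was on 1 slide and every LBW array on another, so the effects of slide and of birth weight cannot be told apart there. The ABW arrays labelled umbilical cord lay on slide 4 (replicates 1 and 2) and slide 6 (replicates 3 and 4), and all LBW ones on slide 5, so no slide held both birth weights of that label either, and slide and birth weight are confounded there too.

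Most members gave a signal far above background. Of the 37 probes, 33 were well above background on all 22 arrays, and 30 had a median processed signal over 1000, the lowest of these at 1724. The remaining 7 probes had a median signal of 99.0 or less. Among these dim probes were RPL30 (59.9), NM_000971 (99.0) and NM_000991 (38.2), each flagged well above background on all 22 arrays. No member was saturated on any array, the highest signal being 381029. The large subunit probe NM_000995 was flagged well above background on 12 arrays. The large subunit probes NM_000994 and NM_000997 were flagged on 1 and 3 arrays and the small subunit probe NM_001025 on 1, so these 3 were not tested and have no fold. The 34 tested probes stand for 33 genes, 22 of the large and 11 of the small subunit. The median difference between the 2 spots of a member was 0.06.

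The median over members differed little between arrays of a label. The large subunit median was 5.91 to 6.02 on the ABW and 5.85 to 6.04 on the LBW muscle arrays, and the small subunit median 6.13 to 6.60 and 6.46 to 6.59. On the arrays labelled liver the large subunit median was 5.77 to 6.13 in ABW and 5.77 to 5.97 in LBW. The arrays labelled umbilical cord spread more widely, from 5.94 to 6.31 in ABW and from 5.36 to 6.58 in LBW, with LBW replicate 1 the lowest and LBW replicate 2 the highest of all 22. Within groups the median SD of the members was 0.17 to 0.20 in muscle and 0.19 in both groups labelled liver, against 0.37 in ABW and 0.50 in LBW labelled umbilical cord. Over all probes kept, the median SD was 0.25 to 0.41 in those first 4 groups and 0.51 and 0.50 in the last 2.

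On the arrays labelled umbilical cord, 7 of the 34 member probes were lower in LBW and none was higher. The 7 were 4 large subunit probes (RPL30, both probes of RPL17 and NM_000971) and 3 small subunit probes (RPS3A, RPS7 and RPS6), 20.6% of the members, where 8.93% of all probes were called, 5.35% as lower and 3.58% as higher. The brightest of the 7 had a median signal of 17491, a boundary taken from the calls, and 22 members were brighter. Of all probes, 5.41% at or below that signal and 1.24% above it were called lower. RPL30 and NM_000971 were among the dim probes, with median signals of 59.9 and 99.0. For 5 of the 34 every LBW array was below every ABW array, as it was for 3.25% of all probes, and for none was every LBW array above (2.62% of all probes). RPS7 and the RPL17 probe A_01_P001055 also passed an adjusted p under 0.05, which 0.631% of all probes passed, 0.608% as lower and 0.0234% as higher. Of the other 27 probes, 22 differed by less than 0.4, and the median difference was -0.10 over the large and -0.15 over the small subunit, beside -0.01 over all probes. Of the 7 probes called, all but NM_000971 belong to genes that the study's tables list from these samples, so those tables are not independent evidence of the direction. In bulk samples fewer cells of a type and less RNA per cell cannot be told apart.

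**Figure D1:**
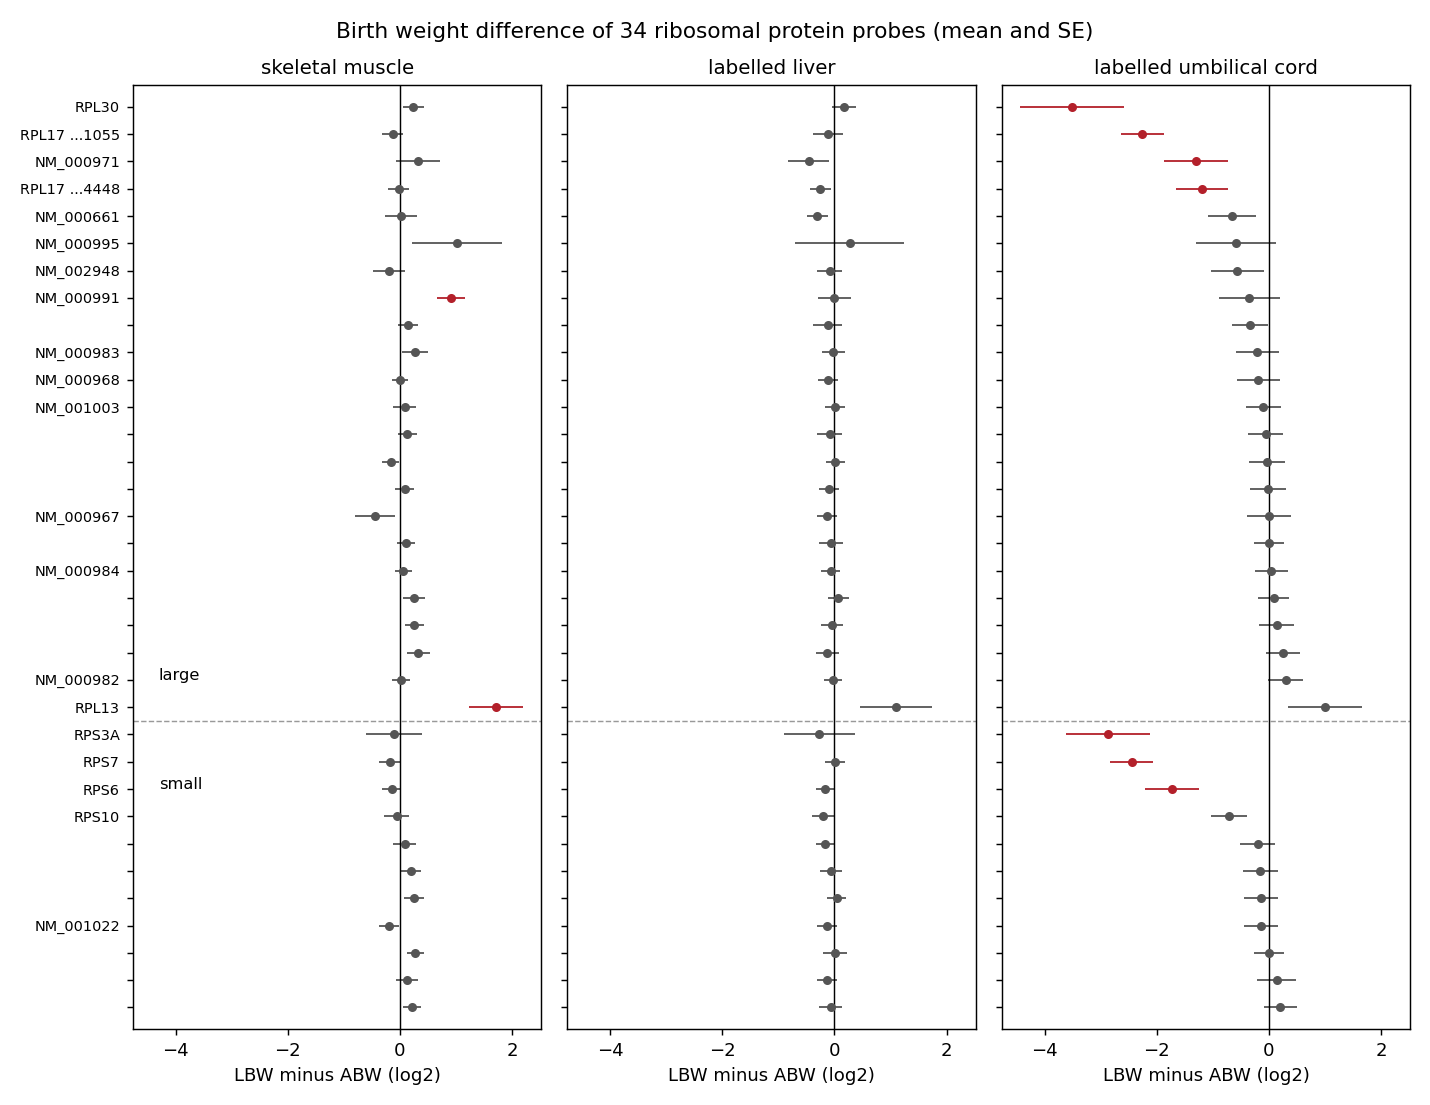
Difference between LBW and ABW on the log2 scale (x axis, with its limma SE) for the 34 tested member probes, large subunit above and small subunit below the dashed line, with labels for the probes that have a symbol or come under the naming rule, in skeletal muscle, on arrays labelled liver and on arrays labelled umbilical cord. Red points are the members called, 2 higher in muscle, 0 labelled liver and 7 lower labelled umbilical cord.

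RPS7, a small subunit protein that can also bind MDM2, had scaled signals of 3.09, 3.38, 4.69 and 4.18 in ABW replicates 1 to 4 and of 1.08, 1.78, 1.16 and 1.53 in LBW. Every LBW array was below every ABW array, and the ABW arrays of slide 6 were above those of slide 4. The difference was -2.45 (SE 0.39, adjusted p = 0.0209 by limma), 5.45-fold lower, with a two-sided exact permutation p = 0.0286, the smallest that 4 against 4 allows. Against the ABW arrays of slide 4 alone it was -1.85 and against those of slide 6 alone -3.05.

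The RPL17 probe A_01_P001055 (a protein at the exit of the peptide tunnel of the large subunit) had 4.20, 4.89, 5.59 and 4.74 in ABW and 1.91, 3.18, 2.77 and 2.53 in LBW. The groups did not overlap, on either ABW slide. The difference was -2.26 (SE 0.38, adjusted p = 0.0296 by limma), or 4.78-fold lower. The other RPL17 probe, A_01_P004448, had 4.35, 5.15, 4.81 and 5.81 in ABW and 3.01, 4.95, 3.34 and 4.04 in LBW, where replicate 2 lay within the ABW range. Its difference of -1.20 (SE 0.47, adjusted p = 0.506) had the same direction and was smaller, and its exact permutation p was 0.0857. It lost its call in 7 of 23 other settings, among them slide 4 alone, spike-in scaling and the methods' t-test.

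RPL30, a large subunit protein, had -3.08 and -2.77 on the ABW arrays of slide 4, 1.04 and 0.97 on those of slide 6, and -4.79, -3.97, -5.12 and -3.98 in LBW. The LBW arrays were below all ABW arrays, but the ABW arrays of the 2 slides lay further apart than those of slide 4 did from LBW. The pooled difference of -3.51 (SE 0.93, adjusted p = 0.235 by limma) became -1.54 against slide 4 alone and -5.47 against slide 6 alone. On slide 6 the negative controls had a net signal of 16.7 to 17.1, against 29.2 to 35.3 elsewhere, and the Feature Extraction version was another. Their part in the RPL30 difference was not tested.

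RPS3A, a small subunit protein, had 3.31, 4.12, 5.21 and 4.29 in ABW and -0.42, 3.22, 2.33 and 0.34 in LBW. LBW replicate 2 was only just below the lowest ABW array. The difference was -2.87 (SE 0.75, adjusted p = 0.225 by limma). RPS3A was variable elsewhere too, with 1.92 in muscle ABW replicate 4 and 1.93 in muscle LBW replicate 4 where the other muscle arrays had 3.40 to 3.77.

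RPS6, the substrate of S6 kinase, had 3.81, 4.03, 4.50 and 4.61 in ABW and 1.21, 3.46, 2.20 and 3.18 in LBW. No LBW array reached the lowest ABW array, and LBW replicates 1 and 3 were the lowest. The difference was -1.73 (SE 0.48, adjusted p = 0.274 by limma, exact permutation p = 0.0286). Against the ABW arrays of slide 4 alone it was -1.41, and the call was lost.

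The large subunit probe NM_000971 overlapped between groups, with -4.23, -2.86, -2.59 and -1.59 in ABW and -3.61, -3.34, -5.12 and -4.41 in LBW. Its difference was -1.30 (SE 0.57, adjusted p = 0.556 by limma), and it lost its call in 11 of 23 other settings. It was -0.58 against slide 4 alone. RPS10 was just outside the call, with 4.87 to 5.19 in ABW, 3.58 to 4.88 in LBW and a difference of -0.71 (limma unadjusted p = 0.0516). RPL13 had the largest difference in the other direction, 1.01 (unadjusted p = 0.157), followed by NM_000982 with 0.30 (unadjusted p = 0.355).

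**Figure D2:**
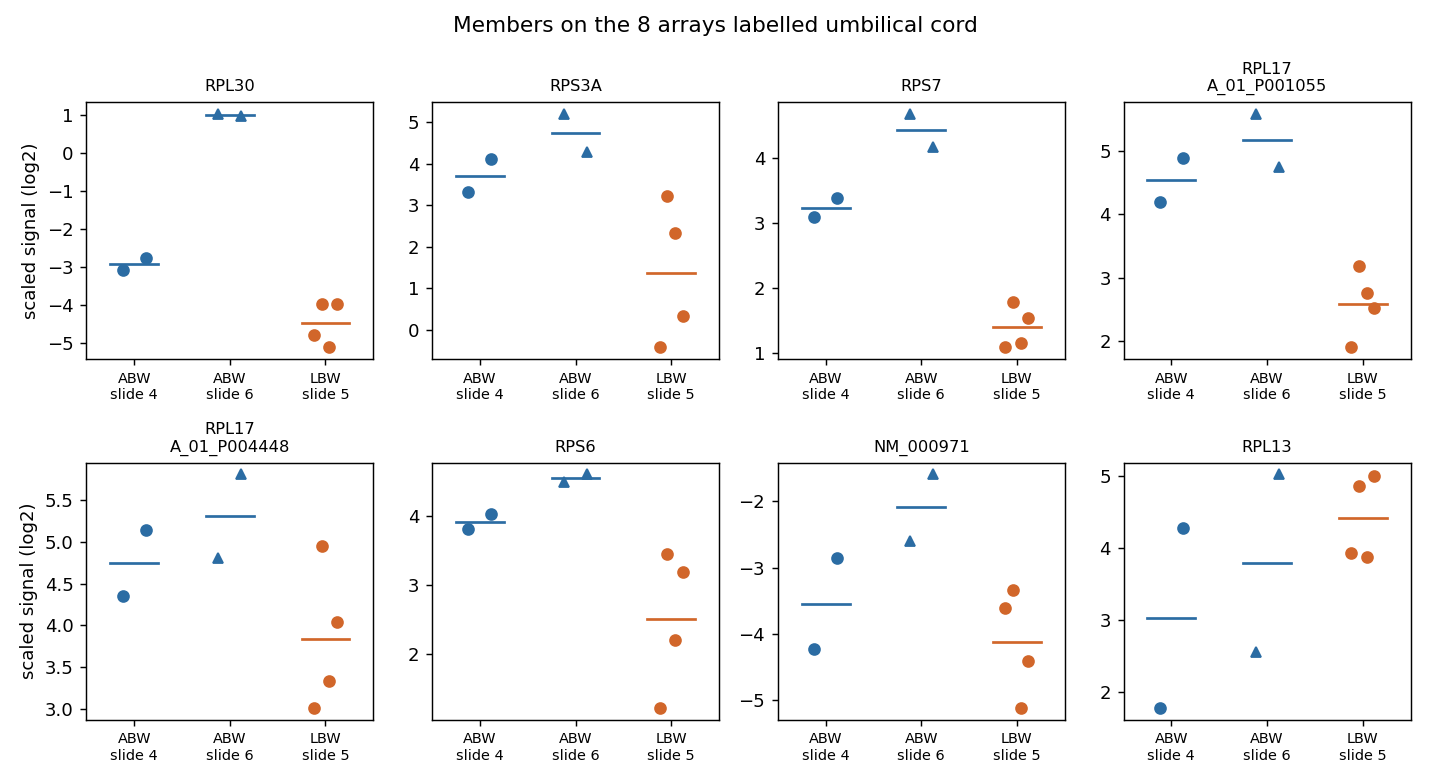
Scaled signal (log2, each panel with its own y axis) of the 7 probes called lower in LBW and of RPL13 on the 8 arrays labelled umbilical cord, with ABW arrays of slide 4 as blue circles, ABW of slide 6 as blue triangles and LBW of slide 5 in orange. Lines are means. RPL30 has values near 1 on slide 6 and near -3 on slide 4, and RPS7 has 4 LBW values of 1.78 or less below 4 ABW values of 3.09 or more.

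With slide as a random block 8 members were lower in LBW labelled umbilical cord and 2 passed the adjusted p. No slide held both birth weights of this label, so the block cannot separate slide from birth weight. Counted without the slide 6 arrays, 4 members were lower in LBW labelled umbilical cord and none at an adjusted p under 0.05. Counted without the slide 4 arrays, 7 were lower and 2 passed the adjusted p, which were RPS7 and RPL30, while RPL17 probe A_01_P001055 did not (adjusted p = 0.0618 by limma). The share of all probes called in these slide settings is not given, so the counts are not read as a result about the members. The call of RPS7, RPL17 probe A_01_P001055, RPL30 and RPS3A was kept in all 23 alternatives, their size being the range -5.47 to -1.54. None of these alternatives can separate slide from birth weight. The adjusted count of 2 fell to 0 when ABW replicate 3 or 4 or LBW replicate 1, 3 or 4 was left out and to 1 without ABW replicate 2. Of the 11 hepatocyte markers 2 were lower in LBW on these arrays, both at an adjusted p under 0.05, and 0 of the 8 that the study's tables do not list were called. The part of the marker list in the members' differences was not tested.

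In skeletal muscle 2 of 34 members were higher in LBW and 0 lower, both of the large subunit, where 9.56% of all probes were higher and 2.55% lower. The 2 are 5.88% of the members, beside 12.1% of all probes called in either direction. Every LBW array was above every ABW array for 4 members, RPL13 and NM_000991 among them, and below for 0, beside 8.53% and 1.98% of all probes. No member and no probe of the array (0%) passed an adjusted p under 0.05 (limma). The 2 members called were the only ones under an unadjusted p of 0.05. Marker lists moved in muscle too, with 3 of 7 matrix and stromal markers lower and 0 of 7 above 0 (median -0.71), and 2 of 5 erythroid probes higher and 5 of 5 above 0 (median 0.76). Of the 5 matrix and stromal markers that the study's tables do not list, 1 was lower and 0 were above 0 (median -0.54). The part of these lists in the members' values was not tested. The median difference was 0.11 over the large and 0.08 over the small subunit, beside 0.06 over all probes.

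RPL13, a large subunit protein, had 2.62, 2.76, 4.58 and 4.44 in muscle ABW and 4.92, 5.60, 4.94 and 5.78 in muscle LBW. ABW replicates 1 and 2 were low and replicates 3 and 4 nearly reached the LBW arrays. The difference was 1.71 (SE 0.48, unadjusted p = 0.00624, adjusted p = 0.157 by limma), 3.27-fold higher, and it kept its call when any array was left out (1.38 to 2.04). On arrays labelled liver RPL13 had 2.53, 4.67 and 4.39 in ABW and 5.70, 4.15 and 5.03 in LBW, and labelled umbilical cord 1.78, 4.27, 2.56 and 5.02 in ABW and 3.94, 4.86, 3.88 and 4.99 in LBW. The groups overlapped in both, with differences of 1.097 (unadjusted p = 0.137) and 1.01, and the mean of the 3 differences was 1.27 (SE 0.39, adjusted p = 0.158).

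NM_000991, the other large subunit probe called in muscle, had -4.41, -4.23, -4.56 and -4.63 in ABW and -3.41, -3.81, -2.91 and -4.05 in LBW. All LBW arrays were above all ABW arrays. This is a dim probe, with a median signal of 38.2 over all arrays. The difference was 0.91 (SE 0.26, adjusted p = 0.157 by limma). With spike-in scaling it was 0.50 and with normexp correction 0.47, and the call was lost in both. The 2 lowest differences in muscle, NM_000967 at -0.44 and NM_001022 at -0.20, were not called. RPL30 differed by 0.24 and RPS6 by -0.15 in muscle.

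On arrays labelled liver no member was called in either direction (limma, 0 under an unadjusted p of 0.05, and 0 by the methods' t-test), where 4.73% of all probes were called, 3.04% as higher and 1.69% as lower, and 0% passed an adjusted p. Every LBW array was below every ABW array for 3 members (NM_000661, RPL17 probe A_01_P004448 and RPS6) and above for 0, beside 3.19% and 8.9% of all probes. Here 3 against 3 arrays cannot give an exact p under 0.10. The median differences were -0.07 over the large and -0.13 over the small subunit, beside 0.06 over all probes, and 24 of 34 members were below 0. Within slide 3, which holds the 3 ABW arrays and LBW replicate 1 only, the medians were 0.09 and 0.12, and slide as a fixed block rests on the same 4 arrays, so the direction was not settled with slide taken into account. The member farthest above 0 was RPL13, and NM_000995, next in that direction, was well above background on only 1 array of each group. Below 0 lay NM_000971 at -0.46 and NM_000661 at -0.31, with RPL30 at 0.17 and RPS6 at -0.16.

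Whether the birth weight difference depended on the tissue label was tested with the interaction in a fit of the 6 groups. RPS7 (adjusted p = 0.00405) and RPL17 probe A_01_P001055 (adjusted p = 0.00976) passed, 2 of 34 members, beside 1.01% of all probes. The fit pools the variance of all 6 groups, while members spread more on the arrays labelled umbilical cord. The SE of the RPS7 difference there was 0.28 in this fit and 0.39 within the label alone, so these p-values can be too small. With spike-in scaling 0 members passed the interaction. For RPS7 the difference labelled umbilical cord less that in muscle was -2.27 (adjusted p = 0.0051), and less that labelled liver -2.47 (adjusted p = 0.00545). For this RPL17 probe the same 2 values were -2.13 (adjusted p = 0.00893) and -2.14 (adjusted p = 0.0216). The mean of the 3 differences was -0.87 for RPS7 (adjusted p = 0.0133) and -0.83 for RPL17 probe A_01_P001055 (adjusted p = 0.0213), again the 2 members that passed, beside 0.888% of all probes (0.637% as lower and 0.251% as higher). The other RPL17 probe, A_01_P004448, passed neither by limma. Its interaction had an adjusted p = 0.504, and its mean of the 3 differences was -0.49 (adjusted p = 0.302). RPL30 (interaction adjusted p = 0.0859) and RPS6 (adjusted p = 0.181) did not pass.

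In muscle and on arrays labelled liver the sign of the members' medians depended on how the arrays were scaled. Labelled umbilical cord, both medians were negative under every scaling and only their size changed. In muscle the members' medians were 0.11 (large) and 0.08 (small) with the 75th percentile, 0.02 and -0.00 with the array median, 0.09 and 0.03 with quantile normalization, -0.16 and -0.19 without scaling, and -0.30 and -0.33 with spike-in controls. All probes of the array moved along, from 0.06 to -0.35 with spike-in controls. Relative to all probes, the large subunit median was 0.05 above in muscle with the 75th percentile, the array median, the spike-in controls and no scaling, and the small subunit median 0.02 above, since these shift every probe of an array alike. With normexp correction the same 2 values were -0.07 and -0.11.

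On arrays labelled liver the medians turned from -0.07 and -0.13 to 0.10 and 0.03 with spike-in controls, while all probes had 0.06 and 0.22, and 4 of 34 members were above the median of all probes with either scaling. Labelled umbilical cord, they were -0.10 and -0.15 with the 75th percentile, -0.02 and -0.08 with the array median, -0.46 and -0.51 with spike-in controls and -0.98 and -1.04 without scaling, beside -0.01, 0.06, -0.37 and -0.90 over all probes. With quantile normalization they were -0.21 and -0.33 beside 0.03, and with normexp correction -0.17 and -0.24 beside 0.29. The members less all probes were thus -0.08 and -0.14 with the 75th percentile, -0.24 and -0.36 with quantile normalization and -0.46 and -0.54 with normexp correction, and 12, 4 and 2 of 34 members were above the median of all probes. There the number called lower was 7 with the 75th percentile and the array median, 6 with quantile normalization, 4 with spike-in controls and 9 without scaling, and the number at an adjusted p under 0.05 was 2, 2, 2, 0 and 4. Of all probes, 48.8% were above 0 with the 75th percentile, 22.5% with spike-in controls and 4.20% without scaling. The share of all probes called under the other scalings is not given, so these counts are not read as a result about the members. Spike-in scaling uses 5 control levels and left more spread between arrays of a group, with an SE of 1.14 for each member called on the arrays labelled umbilical cord.

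**Figure D3:**
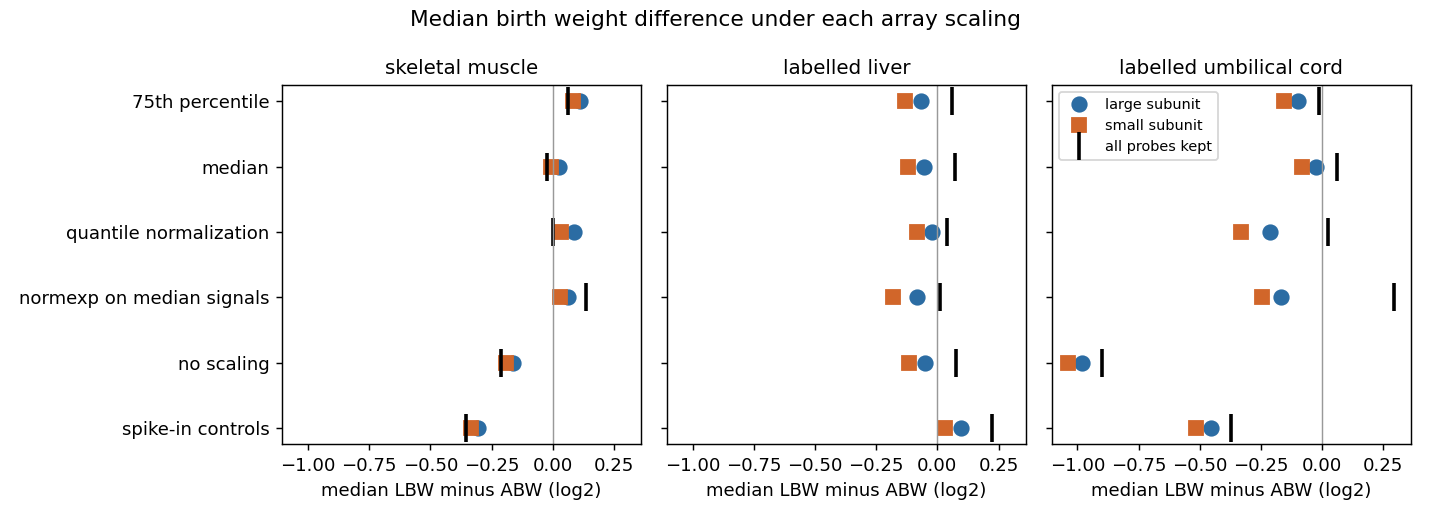
Median difference between LBW and ABW (x axis, log2) of the large subunit members, the small subunit members and all probes kept under 6 ways to scale the arrays, in skeletal muscle and on arrays labelled liver and umbilical cord. With spike-in controls all 3 medians lie between -0.35 and -0.30 in muscle, while with normexp correction labelled umbilical cord all probes lie at 0.29 and the members at -0.17 and -0.24.

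At an adjusted p under 0.05 (limma, 22 arrays), 6 of 34 members were lower and 0 higher labelled umbilical cord than labelled liver, beside 67% of all probes called (31.3% lower and 35.6% higher). Muscle against labelled liver gave 11 higher and 3 lower, beside 65.3% (37.2% and 28.1%), and muscle against labelled umbilical cord 13 higher and 2 lower, beside 64.9% (35.8% and 29.1%). The muscle arrays lay on slides 1 and 2, which held no other label, so slide and label cannot be told apart in either comparison with muscle. The labels liver and umbilical cord shared slide 4 only. With spike-in scaling the 11 and 13 higher became 0 and 0, and 11 members were then lower in muscle than labelled umbilical cord. With quantile normalization 25 members were lower labelled umbilical cord than labelled liver and 15 lower in muscle than labelled liver. Shares of all probes called under these 2 scalings are not given, so these counts are not read as a result about the members.

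The clearest member between labels was NM_000967, of the large subunit. It had 4.70 to 5.69 in ABW and 4.06 to 5.57 in LBW muscle, against 6.42 to 6.78 on the arrays labelled liver and 5.36 to 6.999 on those labelled umbilical cord. Every muscle array was below every array labelled liver. The difference was -1.59 (SE 0.27, adjusted p = 2.95e-05) against labelled liver and -1.30 (SE 0.25, adjusted p = 1.09e-04) against labelled umbilical cord. NM_005061, from a list of paralogues of ribosomal proteins and no member, had 4.77 to 5.53 on the muscle arrays against -5.79 to -4.52 labelled liver and -6.25 to -3.91 labelled umbilical cord, and was well above background on all 22. It differed by 10.49 and 10.05 (adjusted p = 9.71e-16 and 1.86e-16) between muscle and the other 2 labels, and within muscle by 0.04 (adjusted p = 0.951) between LBW and ABW.

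**Figure D4:**
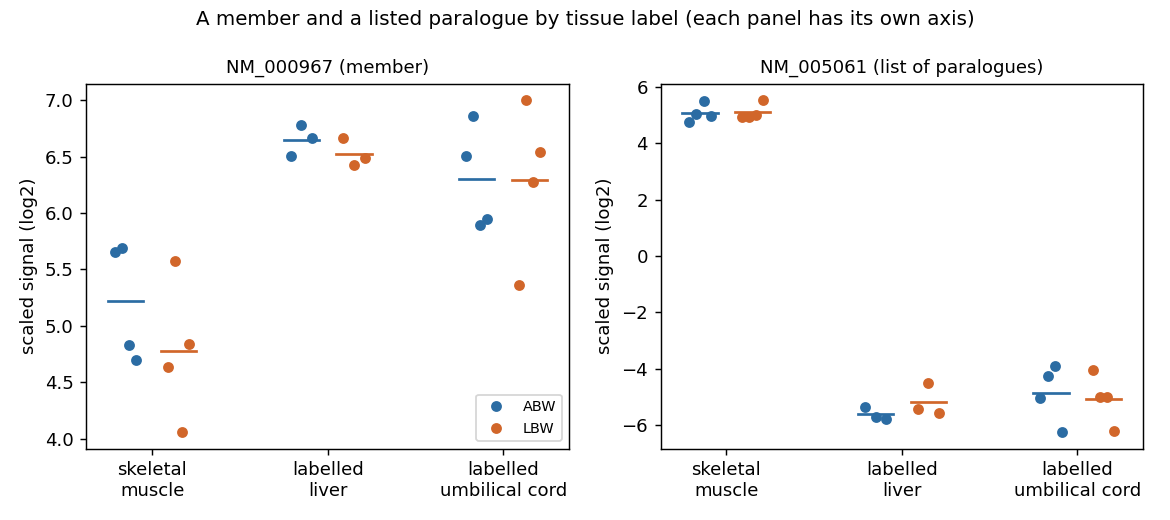
Scaled signal (log2, separate y axes) of the member NM_000967 and of the listed paralogue NM_005061 on all 22 arrays by tissue label, ABW in blue and LBW in orange, with group means as lines. NM_000967 is lower on each muscle array than on each array labelled liver, and NM_005061 is at 4.77 or more on every muscle array and at -3.91 or less on every other array.

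Of the other members, NM_002948 was lower labelled umbilical cord than labelled liver, with a difference of -0.95 (adjusted p = 0.00672), as was NM_000661 with -0.65 (adjusted p = 0.0309). RPS6 differed by -0.79 (adjusted p = 0.0101) over both birth weights, but its ABW means were 4.24 labelled umbilical cord and 4.25 labelled liver, and its LBW means 2.51 labelled umbilical cord and 4.09 labelled liver. The RPL17 probe A_01_P001055 differed by -0.64 (adjusted p = 0.0140), with ABW means of 4.85 labelled umbilical cord and 4.43 labelled liver and LBW means of 2.60 and 4.31, so the 2 birth weight groups went opposite ways. This probe also differed by -0.83 (adjusted p = 0.00238) between muscle and labelled liver, and RPS7 by -0.64 (adjusted p = 0.0116) between muscle and labelled liver. NM_000968 was 0.86 higher in muscle than labelled liver (adjusted p = 7.07e-04). NM_000995 was also called higher there, but only 2 of 6 arrays labelled liver and 6 of 8 muscle arrays had it well above background, so no size is given. Muscle was higher than labelled umbilical cord by 0.85 at NM_000983. It was higher by 0.91 at NM_000971 and by 0.68 at RPS6 over both birth weights, yet the ABW means were -2.72 in muscle and -2.82 labelled umbilical cord at NM_000971, and 4.13 and 4.24 at RPS6. Muscle differed by -1.12 at RPL30 (adjusted p = 0.0446), whose ABW arrays of slide 6 stand apart, with ABW means of -3.95 in muscle and -0.96 labelled umbilical cord and LBW means of -3.71 and -4.46. RPL13 did not pass in any of the 3 comparisons, RPL30 differed by 0.67 (umbilical cord against liver, by label) and -0.45 (muscle against liver) without passing, and RPS6 by -0.11 between muscle and labelled liver.

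Genes around the ribosome were described from lists chosen by accession. Of 12 probes of other cytosolic ribosomal proteins, 0 were called labelled umbilical cord (median 0.02), beside 8.93% of all probes, and 0 labelled liver, beside 4.73%. In muscle 1 was higher, beside 9.56% of all probes. It is in the study's tables, and 0 of the other 11 probes were called in muscle. The 4 probes of S6 kinase and 4E binding proteins gave 0 calls labelled umbilical cord and labelled liver and 1 higher in muscle, beside the same shares of all probes. Of 24 probes of translation initiation factors with PABPC1, 1 was lower labelled umbilical cord, beside 5.35% of all probes, and in muscle 1 was higher and 1 lower, beside 9.56% and 2.55%. The 4 elongation factor probes gave 0 calls in any tissue label.

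The mitochondrial ribosomal proteins had 5 of 17 lower labelled umbilical cord, beside 5.35% of all probes, and 1 at an adjusted p (MRPL1, of the mitochondrial large subunit), beside 0.608%. In muscle 1 was higher and 2 were lower, beside 9.56% and 2.55%. The 9 that the study's own tables list were chosen by it on these samples and are not independent evidence of the direction, and 0 of the other 8 were called. Of 9 nucleolar biogenesis factors, 4 were lower labelled umbilical cord, beside 5.35% of all probes, and 3 at an adjusted p, beside 0.608% (ESF1, NPM3 and WDR75, with GNL2 the other). All 4 are in those tables, while 0 of the other 5 were called. WDR75 was not well above background on any LBW array labelled umbilical cord, so no fold is given. ESF1 had -3.34 to -2.29 in ABW and -6.60 to -5.70 in LBW, a difference of -3.26 (adjusted p = 0.00716 by limma). Of the 5 paralogues 2 were lower labelled umbilical cord, beside 5.35% of all probes, and 0 passed an adjusted p under 0.05. Among them RPL10L, also from the study's tables, had -2.32 to 1.20 in ABW and -3.27 to -2.69 in LBW, a difference of -2.50 (adjusted p = 0.283).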

How the data were processed

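RNA of 22 samples was labelled with Cy3 and hybridized to single-colour arrays, whose spot intensities the authors deposited as read by Agilent Feature Extraction (version 10.1.1.1 on 20 arrays and 10.5.1.1 on 2). The log2 value table, also deposited, holds the authors' processed values and was used as an alternative only. For each probe the mean processed signal of its spots without outlier flags was divided by the 75th percentile of its array and put on the log2 scale. LBW and ABW were compared within each tissue label with limma 3.58.1 (R 4.3.3) and Benjamini-Hochberg adjustment, and the interaction, the mean of the 3 differences and the tissue labels in a fit of all 6 groups. Two-sided exact permutation tests went through every split of the arrays with numpy 2.4.6. The fits were tested on simulated data. Alternatives were other scalings, normexp correction (offset 50), no filter, the methods' t-test, slide and replicate blocks, and leaving out each array. Named members were those called, the 2 farthest from 0 in a direction without calls, up to 4 a direction between labels, and those the study names. Of those known by accession only, at most 2 a direction are printed. RPS10 and NM_005061 were named after their values were seen. The members and lists were chosen with earlier results of these data known. Where the labels do not say that samples are separate animals, p-values measure only the spread between these samples. The number of arrays limits the precision.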

Additional observations from a re-analysis of the deposited data

Results flagged for a closer look

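The adjusted p of the interaction between birth weight and tissue label was 0.0041 for RPS7 and 0.0098 for RPL17 probe A_01_P001055 (limma). Both differed between LBW and ABW by more on the arrays labelled umbilical cord than in muscle or on those labelled liver.

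In muscle ABW the lowest array for RPS6 had a scaled signal of 3.9571 and stood apart from the other 3. Among 30 groups examined in this way, chance marks about 1 in 20.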

How the results depend on the processing

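In muscle the large and small subunit medians were -0.3036 and -0.3333 with spike-in scaling and -0.1625 and -0.1922 without scaling, and the large one 0.0249 with the array median. Spike-in scaling and normexp correction each left 1 member higher. Labelled liver they were 0.0956 and 0.0293 with spike-in scaling and 0.0924 and 0.1221 with slide as a fixed block or within slide 3. There 1 was higher with no filter or with the slide block, and 1 higher and 1 lower within slide 3, where the only LBW array was assumed to vary like the others.

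Labelled umbilical cord, 4 members were lower and 0 at an adjusted p under 0.05 with spike-in scaling (small median -0.5134) and against slide 4 alone. Without scaling 4 passed (medians -0.9812 and -1.0388), where 4.20% of all probes were above 0. The adjusted count was 0 by the methods' t-test, 1 averaged per accession and 5 in the fit of 6 groups, which pools the variance of the labels. With the replicate block, whose numbers did not pair the samples, it was 1, with 1 member higher, and the mean of the 3 differences had 0, as with spike-in scaling, where the interaction had 0 too.

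Between labels, spike-in scaling gave 1 higher and 0 lower umbilical cord against liver (0.5898, 0.4094), 0 higher muscle against liver (-0.4788, -0.6995), and 0 higher and 11 lower muscle against umbilical cord (-0.8473, -1.1753). Quantile normalization gave 25 lower (-0.6979, -0.9222), and 0 higher and 15 lower muscle against liver (-0.2885, -0.6805). Normexp gave 3 higher umbilical cord against liver. Shares of all probes called in these settings are not given, so the counts in this section are not read as a result about the members.

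Signs turned for RPL30 in muscle (-0.1756 spike-in, -0.0345 unscaled), labelled liver (-0.0769 by slide) and muscle against liver (0.0151 normexp), and for NM_000982 labelled umbilical cord (-0.057 spike-in, -0.5824 unscaled). With spike-in scaling they turned for RPL13 (0.0706 umbilical cord against liver, -0.6561 muscle against liver, -0.7267 muscle against umbilical cord) and NM_000984 (-0.0301 muscle against liver). In the comparison of muscle against umbilical cord they also turned with spike-in scaling for NM_000971 (-0.3585), NM_000983 (-0.4234), NM_001003 (-0.5165) and RPS6 (-0.5908). RPL13 had -0.4804 and NM_000984 -0.0219 with quantile normalization and RPL13 -0.0339 with normexp, muscle against liver. Spike-in and no scaling shift all probes of an array alike, so those signs follow the shift of all probes (muscle against liver from 0.21 to -0.49 with spike-in scaling). The cause of the others was not tested.

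Leaving out 1 array, the adjusted count ranged from 0 to 2 labelled umbilical cord and from 1 to 3 for the mean of the 3 differences, with 5 to 10 lower and 0 to 1 higher labelled umbilical cord and 0 to 1 lower labelled liver. Between labels it ranged from 0 to 2 higher and 3 to 7 lower for umbilical cord against liver and from 1 to 2 lower for muscle against umbilical cord.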
